A study of Mus musculus with 2 samples.

Results

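The DEAD and DEAH box RNA helicases were examined in the liver of mice whose kidneys had been injured. The members were chosen by gene symbol, as all probe sets that the platform annotation gives to exactly 1 gene with a symbol starting with Ddx or Dhx and a digit, leaving out Ddx58 (Rigi). The rule names no measured value, but the family was proposed with results of these arrays in view, so its differences are given as a description. The rule found 50 genes, 34 Ddx and 16 Dhx, with 110 probe sets, of 18193 genes named singly on the array. The 2 samples were pools of total liver RNA from male wild-type C57BL/6 mice, 8 weeks old. In 1 group both kidneys were made ischaemic for 30 minutes while warm and then reperfused (IRI), and the other group had a sham operation. Livers were collected 24 hours later, tissue of 3 mice per group was combined, and each pool was hybridised to 1 Affymetrix array.

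DEAD and DEAH box proteins are named for a short amino acid motif of their ATPase core, and use ATP to open RNA duplexes or to strip proteins from RNA. Different members act at different steps of the life of an RNA, from assembly of ribosomes in the nucleolus and splicing of pre-mRNA to export through the nuclear pore, translation and decay. Hepatocytes make large amounts of secreted protein and depend on each of these steps.

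Each group was 1 array, so no replicate, test or p-value exists and the spread between mice is unknown. Levels are probe set signals on a linear scale whose trimmed mean was the same on both arrays, and differences are log2(signal + 16) of IRI minus sham. A probe set was used when its brighter signal reached the median of that array, 257.0 for sham and 254.1 for IRI. Each gene was then read by the probe set with the largest mean on the log2 scale. All 8 hepatocyte markers in the value table reached both medians. Of these, 6 were higher and 2 lower after IRI, with a median log2 difference of 0.37. The summed signals of the 8 were 270128 (sham) and 389267 (IRI). All 18 bacterial hybridisation controls were brighter on the IRI array, by a median log2 difference of 0.28. All 9 pancreatic acinar markers were higher after IRI, 7 of them at least 2-fold, with summed signals of 5526 (sham) and 14303 (IRI) and none at 0. The 3 cholangiocyte markers past the filter were higher, 2 of them, Krt19 (72.4) and Epcam (180.6), from sham signals under the array median. Over all 5 cholangiocyte markers in the value table the summed signals were 761.7 (sham) and 2468 (IRI). Of 9 Kupffer cell and macrophage markers 7 were lower, with summed signals of 10908 (sham) and 8110.0 (IRI). Past the filter, 4 of 5 stellate cell and 5 of 8 sinusoidal endothelial markers were lower. Their summed signals were higher after IRI, at 8842 and 11251 for the 6 listed stellate markers and 8718.5 and 9164 for the endothelial ones. The stellate marker Dcn (3968 and 8037) and the endothelial marker Lyve1 (326.8 and 2740.5) were higher. Of 6 neutrophil markers 4 were higher, with summed signals of 3274 (sham) and 4789 (IRI). S100a8 read 45.6 and 1407 and S100a9 204.8 and 788.1, both sham values being under the array median. Csf3r (652.7 and 740.8) and Mpo (695.1 and 729.4) were near level. Elane (1384 and 1016) and Cxcr2 (291.8 and, under the IRI median, 107.6) were lower. The part of these cells in the helicase values was not tested, and in bulk liver fewer cells of a type and less RNA per cell cannot be told apart.

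Most helicase genes had a higher signal after IRI, by small margins, and the export helicases Ddx39a and Ddx39b were 4.33-fold and 3.32-fold higher. Of the 50 genes, 41 passed the filter on dim signals, and 39 of these reached the median of each array. Of the 41, 29 were higher and 12 lower after IRI, beside 49.3% of all 13117 genes that were higher. The median log2 difference was 0.33 (quartiles -0.10 and 0.63), beside -0.01 for all genes (quartiles -0.45 and 0.42). With the hybridisation controls as the reference 21 of the 41 were higher, beside 31.6% of all genes. The median was then 0.049, beside -0.30 for all genes. The 8 genes that change side under this reference are Ddx31, Ddx42, Ddx52, Dhx8, Dhx29, Dhx30, Dhx37 and Dhx58. The filter admits a gene that is bright on 1 array only. Among the 39 genes past both medians 27 were higher, beside 49.1% of all such genes, with a median of 0.28.

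A signal at least 2-fold higher was measured for 5 helicase genes, beside 8.71% of all genes, and a signal at least 2-fold lower for 0, beside 9.59%. The 5 were Ddx28, Ddx39a, Ddx39b, Ddx21 and Ddx18, whereas with the hybridisation controls as the reference 3 helicase genes were at least 2-fold higher and 1 lower, beside 5.76% and 15.4% of all genes. Among helicases past both medians, 4 of 39 were at least 2-fold higher, beside 5.14% of all such genes. Ddx18, at 1.01, lay just past the 2-fold line of 1 on the log2 scale, and Ddx56, at 0.79, was the nearest below it among genes past both medians. Dhx38 measured 0.86, but its sham signal was under the array median. The Ddx branch had a median difference of 0.46 over 26 genes and the Dhx branch 0.13 over 15 genes.

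**Figure D1:**
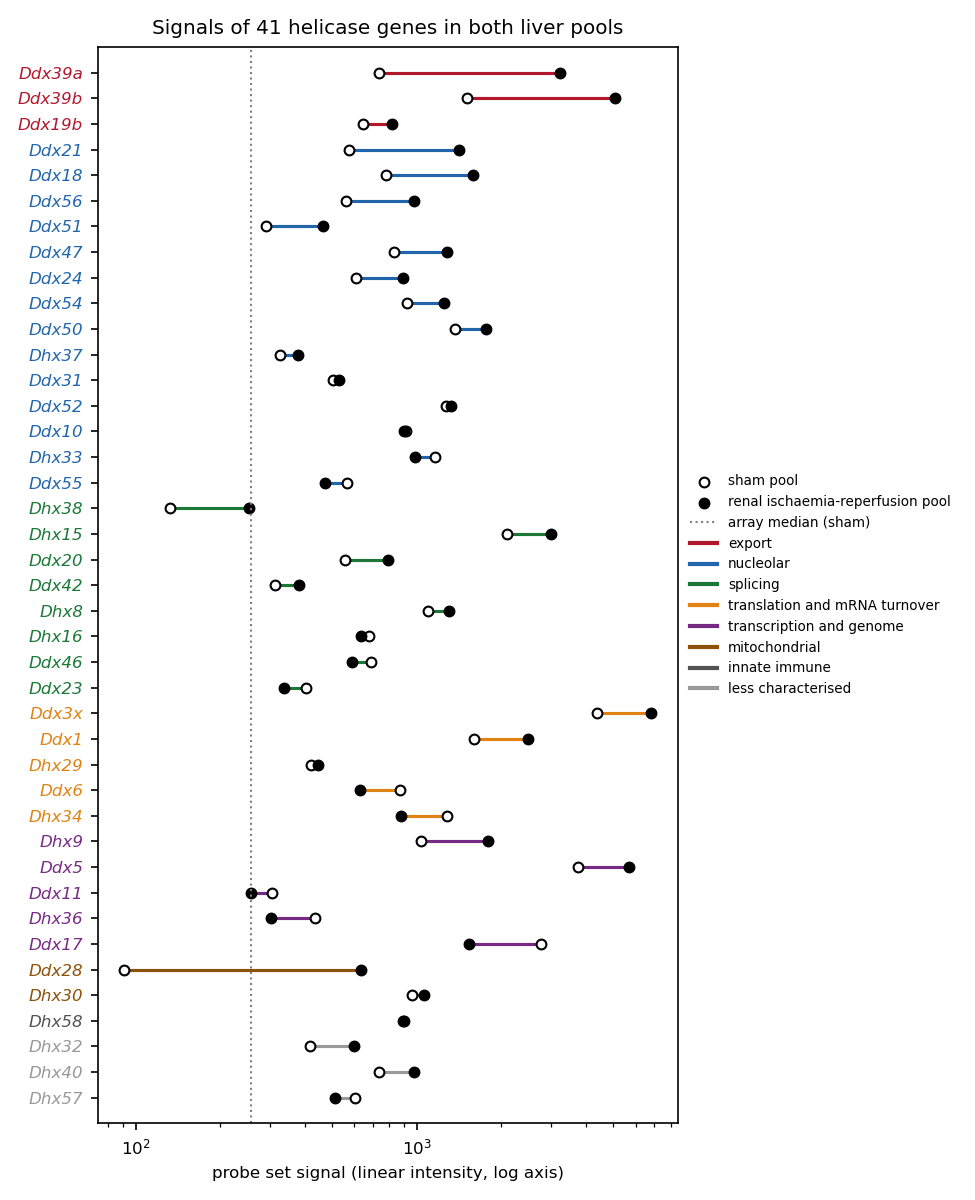
Signals of the 41 helicase genes past the filter, one line per gene, with the sham pool as an open circle and the IRI pool as a filled circle on a logarithmic intensity axis, coloured by role. The longest lines belong to Ddx28, Ddx39a and Ddx39b, and the dotted line is the sham array's median of 257.0.

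Among export helicases, Ddx39b (UAP56) loads export factors onto spliced mRNA as part of the TREX complex, and Ddx39a (URH49) is its close paralogue. Ddx39a had a signal of 733.7 after sham operation and 3232 after IRI, which is 4.33-fold higher. This log2 difference of 2.12 exceeded that of 98.2% of all genes. The other 4 probe sets of Ddx39a went from 258.7 to 1973, from 359.9 to 1066, from 230.5 to 606.1 and from 184.4 to 390.0, the last 2 being under the sham median. All 5 were thus at least 2-fold higher as measured, with log2 differences from 1.02 to 2.86. Of these probe sets 3 carry the suffix _x_at, which marks probes that can also bind other transcripts. Ddx39b went from 1510 to 5055, 3.32-fold higher, and by a second probe set, also with the suffix _x_at, from 1519 to 2882, a log2 difference of 0.92. Its other 2 probe sets were under both medians. Among helicases with 2 or more probe sets past the filter, Ddx39a was the 1 of 22 with every probe set at least 2-fold higher as measured, beside 2.76% of all such genes. As 2 of its 5 probe sets passed the filter only through the IRI array, their folds are uncertain.

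Ddx19b, which strips export factors from mRNA at the cytoplasmic face of the nuclear pore, differed less. Its signal was 643.9 after sham operation and 815.4 after IRI, a log2 difference of 0.33. A second probe set read 285.9 and 420.4 (0.53). The fourth member of the group, Ddx25, a testis helicase, had signals of 162.7 and 162.6, under the median of both arrays. Over the 3 export helicases past the filter the median difference was 1.73, or 0.92 with the smallest difference of each gene, with Ddx19b inside the 2-fold line and the Ddx39 pair outside it.

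Nucleolar helicases formed the largest group, with 14 of 16 genes past the filter. Of these, 2 were at least 2-fold higher, beside 8.71% of all genes. In all, 11 were higher and 3 lower after IRI, beside 49.3% of all genes that were higher, with a median difference of 0.40. That median was 0.11 with the hybridisation controls as the reference and 0.18 with the smallest difference of each gene. Ddx21, which takes part in transcription and processing of ribosomal RNA, had a signal of 574.1 after sham operation and 1409 after IRI, 2.42-fold higher. Its second probe set read 182.6 and 259.4 (0.47), the sham value being under the array median. Ddx18, counterpart of the yeast ribosome assembly helicase Has1, went from 777.1 to 1582, 2.02-fold higher. A second probe set of Ddx18 read 243.0, under the sham median, and 268.4, a difference of 0.13, so its 2-fold value rested on 1 probe set.

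Most other nucleolar members differed less, in the same direction. Ddx56, a helicase of large subunit assembly, read 559.4 after sham operation and 976.5 after IRI (0.79). Ddx51, which acts in processing of large subunit RNA, read 290.1 and 463.5 (0.65). Ddx47, counterpart of the yeast small subunit helicase Rrp3, read 831.2 and 1286 (0.62). These 3 were higher by less than 2-fold, and each had 1 probe set past the filter. Ddx24, counterpart of yeast Mak5, read 607.4 and 896.4 (0.55). Ddx50, the paralogue of Ddx21, read 1368 and 1769 (0.37) and was also higher by its second probe set, at 432.7 and 767.2 (0.80). Ddx54, counterpart of yeast Dbp10, read 925.1 and 1250 (0.43) by a probe set with the suffix _x_at and 774.2 and 864.4 (0.16) by the other. Both probe sets of either gene were therefore on the higher side. Dhx37, of small subunit assembly, read 326.4 and 377.9 (0.20). Ddx31, counterpart of yeast Dbp7, read 504.6 and 527.0 (0.06). Ddx52, counterpart of yeast Rok1, was nearly level by its representing probe set at 1268 and 1321 (0.06) but read 352.4 and 584.7 (0.71) by the other.

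The 3 nucleolar genes with a lower signal were Ddx55, Dhx33 and Ddx10. Ddx55, counterpart of the yeast large subunit helicase Spb4, was the lowest, with 565.3 after sham operation and 473.2 after IRI (-0.25). Dhx33, which acts in ribosomal RNA transcription, read 1166 and 985.8 (-0.24) by its representing probe set and 464.4 and 699.8 (0.58) by the other. Ddx10, counterpart of yeast Dbp4, read 912.7 and 901.0 (-0.02) and, by the other, 363.0 and 714.1 (0.95). For Dhx33 and Ddx10 the direction thus depended on the probe set.

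Promoter windows of the members with 2-fold differences are shown with that of Ddx17, to set their sequences side by side. Ddx17 had the lowest difference by its representing probe set, which carries the suffix _x_at. RefSeq (GRCm38.p6) gave windows of 300 bases around the annotated start for 44 of the 50 genes, Ddx39a not among them. Capitals mark CCGGAAG (a core bound by ETS factors), CCAAT and GGGCGG (the Sp1 box), each searched on both strands and counted whether or not it overlapped another. Ddx17 has 2 starts in the table and the most upstream is given.
Ddx39b (chr17:35241496-35241795, plus strand): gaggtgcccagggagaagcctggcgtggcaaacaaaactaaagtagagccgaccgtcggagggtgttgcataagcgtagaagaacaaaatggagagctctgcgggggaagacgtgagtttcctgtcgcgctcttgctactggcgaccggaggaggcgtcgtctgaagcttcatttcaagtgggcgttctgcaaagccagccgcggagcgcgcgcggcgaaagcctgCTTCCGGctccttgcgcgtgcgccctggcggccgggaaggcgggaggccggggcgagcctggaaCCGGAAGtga
Ddx21 (chr10:62602249-62602548, minus strand): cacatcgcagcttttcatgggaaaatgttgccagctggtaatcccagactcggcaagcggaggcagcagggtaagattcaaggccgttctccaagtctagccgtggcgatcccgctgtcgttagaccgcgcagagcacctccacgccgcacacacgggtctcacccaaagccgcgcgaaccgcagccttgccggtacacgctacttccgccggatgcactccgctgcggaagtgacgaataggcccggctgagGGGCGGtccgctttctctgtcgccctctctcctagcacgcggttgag
Ddx18 (chr1:121567931-121568230, minus strand): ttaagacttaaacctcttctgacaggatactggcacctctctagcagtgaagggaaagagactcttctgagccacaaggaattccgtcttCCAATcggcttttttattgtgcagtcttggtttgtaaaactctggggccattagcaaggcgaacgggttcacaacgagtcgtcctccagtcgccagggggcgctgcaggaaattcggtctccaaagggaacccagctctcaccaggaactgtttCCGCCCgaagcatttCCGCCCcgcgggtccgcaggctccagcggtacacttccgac
Ddx28 (chr8:106011437-106011736, minus strand): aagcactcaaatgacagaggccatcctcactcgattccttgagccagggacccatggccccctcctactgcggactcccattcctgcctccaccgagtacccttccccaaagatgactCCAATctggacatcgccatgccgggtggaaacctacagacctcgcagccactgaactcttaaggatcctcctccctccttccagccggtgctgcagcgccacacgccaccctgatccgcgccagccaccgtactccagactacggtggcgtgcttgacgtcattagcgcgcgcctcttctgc
Ddx17 (chr15:79546692-79546991, minus strand): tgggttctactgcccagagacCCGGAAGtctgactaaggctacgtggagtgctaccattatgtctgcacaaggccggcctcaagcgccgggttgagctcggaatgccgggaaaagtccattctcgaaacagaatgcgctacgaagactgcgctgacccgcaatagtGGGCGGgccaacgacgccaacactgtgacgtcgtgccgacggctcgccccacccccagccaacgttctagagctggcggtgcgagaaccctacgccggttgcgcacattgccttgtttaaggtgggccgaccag

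Of 55 promoter windows of helicase genes, 21 held CCGGAAG (38.2%), beside 8.86% of all 32851 windows. GGGCGG was in 58.2% of the helicase windows and 35.7% of all, CCAAT in 47.3% and 37.4%, the E-box CACGTG in 12.7% and 7.15%, and TATAAA in 9.09% and 13.6%. The 16 helicase genes past the filter with CCGGAAG had a median log2 difference of 0.22, and the 19 with a window but no such match 0.50. The Ddx39b window held 2 matches to CCGGAAG and the Ddx17 window 1, and the windows of Ddx21, Ddx18 and Ddx28 held 0. A match is only a run of letters in the window, and no binding was measured.

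Splicing helicases showed small differences. Of 10 genes, 8 passed the filter, none of them 2-fold higher or lower, beside 8.71% and 9.59% of all genes. Of the 8, 5 were higher and 3 lower, beside 49.3% of all genes that were higher, with a median of 0.26. The 5 include Dhx38, which passed by its IRI signal only. Over the 7 genes past both medians the median was 0.24. The median of the 8 was -0.028 with the hybridisation controls as the reference. It was 0.11 with dim signals raised to the array median and 0.10 with the smallest difference of each gene. Dhx38, which remodels the spliceosome between its catalytic steps, read 132.7 after sham operation, under that array's median, and 254.2 after IRI. It passed the filter only through the IRI array, against a median of 254.1, so no fold is given and it has no place in the order. Of the genes past both medians, Dhx15, which takes apart the spent spliceosome with the excised intron, was highest. It read 2100 and 2998 (0.51) by one probe set and 1682 and 1649 (-0.03) by the other. Ddx20 (Gemin3), a subunit of the SMN complex that assembles spliceosomal particles, read 556.4 and 792.0 (0.50). Ddx42, a partner of the U2 particle, read 312.9 and 382.1 (0.28). The latter pair was higher by 1 probe set each. Dhx8, which releases the finished mRNA, read 1100 and 1300 (0.24).

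The 3 splicing helicases with a lower signal were Ddx23, Ddx46 and Dhx16. Ddx23, which frees the U1 particle from the start of the intron, was lowest with 403.6 after sham operation and 336.2 after IRI (-0.25), whereas its second probe set read 175.6 and 282.1 (0.64). Ddx46, which acts as the U2 particle binds, read 688.4 and 588.8 (-0.22), 204.5 and 388.8 (0.88), and 262.1 and 173.6 (-0.55) by 3 probe sets. Dhx16, which activates the spliceosome, read 678.9 and 632.5 (-0.10). The second probe set of Ddx23 and the last 2 of Ddx46 were under the median on 1 array, so their differences are only as measured.

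Helicases of translation and mRNA turnover were mixed, with 3 of 5 genes higher, beside 49.3% of all genes, and a median of 0.08. Ddx3x, which helps ribosomes start on structured mRNA, read 4368 after sham operation and 6832 after IRI (0.64), but 4508 and 4847 (0.10), and 1929 and 2047 (0.09), by its other probe sets. Ddx1, part of the tRNA ligase complex, read 1603 and 2495 (0.63) and, by a second probe set, 524.0 and 852.8 (0.69). Both genes were higher by every probe set past the filter, Ddx3x by widely differing amounts. Dhx29, a scanning factor of initiation, read 420.8 and 445.9 (0.08). Ddx6, an activator of decapping in P bodies, read 872.0 and 626.3 (-0.47), 709.3 and 697.7 (-0.02), 613.4 and 640.7 (0.06), and 607.1 and 767.9 (0.33) by 4 probe sets, so that no direction was shared. Dhx34, which serves nonsense-mediated decay, was lowest with 1277 and 880.1 (-0.53).

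Among helicases of transcription and genome upkeep, 2 of 5 were higher, beside 49.3% of all genes, and the median was -0.23. Dhx9 (RNA helicase A) was highest with 1038 after sham operation and 1788 after IRI (0.78), by a probe set with the suffix _s_at. Ddx17, a coregulator of transcription and microRNA processing, had the lowest difference of all 41 genes, from 2757 to 1530 (-0.84). This reading came from a probe set with the suffix _x_at. The second probe set of Ddx17 was lower as well, at 2147 and 1712 (-0.32). With suffixes _x_at and _s_at left out, Ddx17 stood at -0.32 and Dhx34 was lowest at -0.53. Among the 22 helicases with 2 or more probe sets past the filter, Ddx17 was the 1 with all of them on the lower side. Of all 5028 genes with 2 or more, 1369 were lower by every probe set. Dhx36, which unwinds G-quadruplexes, read 435.4 and 303.2 (-0.50) by its representing probe set but 341.3 and 379.7 (0.15), and 332.1 and 381.6 (0.19), by its others. Ddx11, a DNA helicase of chromatid cohesion, read 305.0 and 258.1 (-0.23).

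Ddx5, the close paralogue of Ddx17, had probe sets that differed widely. Its representing probe set went from 3744 after sham operation to 5690 after IRI (0.60). The 3 with the suffix _x_at went from 2619 to 3787 (0.53), from 1474 to 1977 (0.42) and from 1982 to 2478 (0.32). Another read 1302 and 1273 (-0.03), and the last went from 1548 to 529.2, a log2 difference of -1.52. So 4 of 6 readings of Ddx5 were higher, while both of Ddx17 were lower.

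Of the mitochondrial helicases, Ddx28, which acts in assembly of the mitochondrial ribosome, had a signal of 91.0 after sham operation and 632.1 after IRI. The sham signal was under the array median, so the difference is given as at least 2.37-fold, and it rested on the gene's only probe set. Dhx30, which acts on the same particle, read 963.3 and 1057 (0.13) and was near level by all 3 probe sets past the filter (0.13 to 0.16). Dhx58 (LGP2), a sensor of viral RNA, read 891.7 and 901.1 (0.01) by one probe set and 333.7 and 47.7 (-2.46) by another, the latter being under the IRI median. Of the less characterised members, Dhx32 was highest with 416.4 and 598.3 (0.51), but its second probe set read 321.2 and, under the IRI median, 199.3 (-0.65). Dhx40 read 734.0 and 978.7 (0.41), and Dhx57 was lowest with 603.3 and 510.9 (-0.23).

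The 9 genes that did not pass the filter were Ddx4, Ddx25, Ddx27, Ddx41, Ddx43, Ddx49, Ddx59, Ddx60 and Dhx35. Their signals ran from 11.2 to 251.9 after sham operation and from 13.9 to 184.7 after IRI, so no fold is given for any. Ddx27, a nucleolar helicase, lay closest to the filter at 251.9 and 184.7. The germ cell helicases Ddx4 (60.9 and 111.1) and Ddx43 (135.6 and 167.8) and the interferon-response helicase Ddx60 were dim in both pools.

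Probe sets of the same gene show how far readings of 1 gene differ on the same 2 arrays. Their spread holds no error between arrays or between mice. Over the 22 helicase genes with 2 or more probe sets past the filter, the probe sets of a gene differed with a pooled SD of 0.63 in log2 difference, beside 0.72 over 5028 genes. The differences of 29 of the 41 genes were smaller than 0.63. In 11 of the 22 genes all probe sets were higher, and in 1 (Ddx17) all were lower. Of the 5028 genes, 1410 had all probe sets higher and 1369 all lower. In 10 of the 22 the probe sets differed in sign, beside 44.7% of all such genes. When each gene was read by its smallest difference instead, the median of the 41 genes was 0.15 and 2 genes, Ddx28 and Ddx39a, were at least 2-fold higher, beside 7.06% of all genes. The sham signals behind both values were under the array median.

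**Figure D2:**
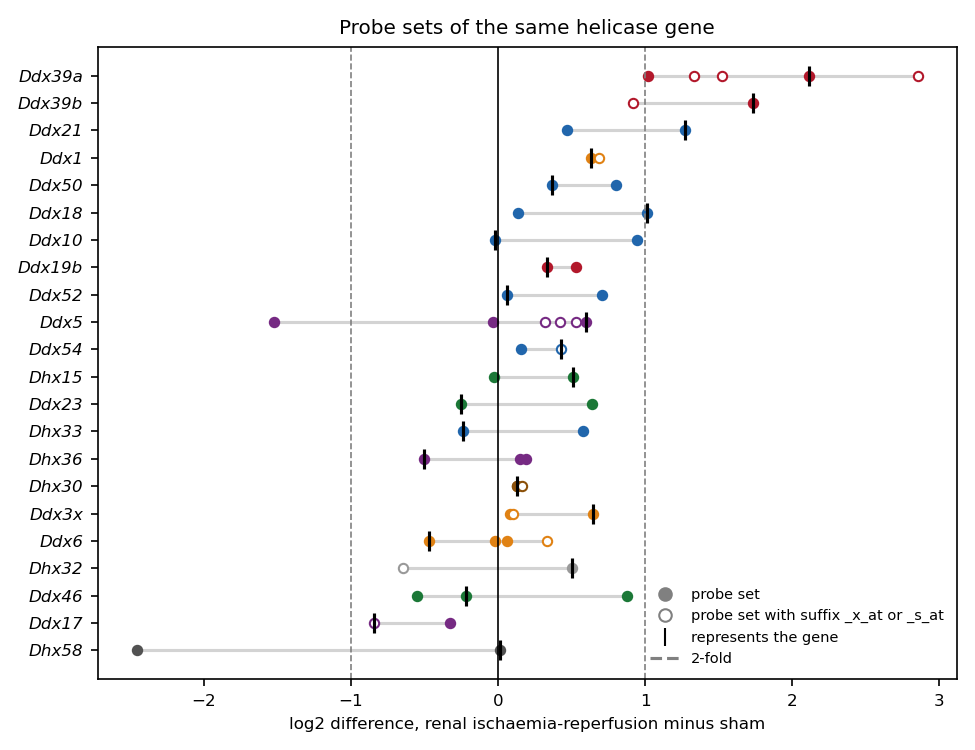
Log2 differences of every probe set past the filter for the 22 helicase genes with 2 or more, coloured by role, with open circles for suffixes _x_at and _s_at, a black tick on the probe set that represents the gene and dashed lines at 2-fold. The 5 points of Ddx39a lie between 1.02 and 2.86, while those of Ddx5 reach from -1.52 to 0.60 and those of Dhx58 from -2.46 to 0.01.

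Genes that work beside the helicases were read from 4 lists of partner proteins without Ddx or Dhx genes. Of 56 nucleolar ribosome assembly factors past the filter, 44 were higher after IRI, beside 49.3% of all genes. At least 2-fold higher were 15, beside 8.71% of all genes, and 1 was at least 2-fold lower, beside 9.59%. Past both medians, 11 of 51 were at least 2-fold higher, beside 5.14% of all genes. Their median was 0.41, beside 0.40 for the nucleolar helicases. Nhp2, a subunit of box H/ACA ribonucleoproteins, went from 961.6 to 3454 (1.83), and Gnl2, a nucleolar GTPase, from 588.8 to 1710 (1.51). Among factors past both medians the lowest were Bysl, of small subunit assembly, with 943.8 and 402.6 (-1.20), and Utp6, of the small subunit processome, with 1330 and 752.3 (-0.81). Bysl was higher by 1 of its 2 probe sets past the filter, and Utp6 by 1 of 3.

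Of 49 spliceosome proteins, 37 were higher, beside 49.3% of all genes. At least 2-fold higher were 6, beside 8.71% of all genes, and none was lower by 2-fold, beside 9.59%. Of these 6, 5 were under the sham median, and past both medians 1 of 42 was at least 2-fold higher, beside 5.14% of all genes. Their median was 0.40, beside 0.26 for the splicing helicases. Past both medians, Snrpb2, of the U2 particle, was highest with 422.0 and 1112 (1.37), then Snrpg, an Sm ring protein, with 791.3 and 1416 (0.83). Snrnp27, with 1574 and 1004 (-0.64), and Prpf6, with 1410 and 967.5 (-0.54), both of the tri-snRNP, were lowest. Of 25 mRNA export and exon junction proteins 18 were higher, beside 49.3% of all genes, with a median of 0.20. None was 2-fold higher, beside 8.71% of all genes, and 1 was at least 2-fold lower, beside 9.59%. Rnps1, an exon junction protein, read 724.3 and 1461, just under 2-fold. Thoc1, which sits in the THO complex beside Ddx39b, read 518.7 and 984.6 (0.90). Other Thoc genes past the filter differed from it, with Thoc2 at 0.03, Thoc3 at -0.26 and Thoc7 at 0.20. Thoc5 read 396.0 and, under the IRI median, 99.9. Nxt1, partner of the export receptor, was lowest past both medians with 1132 and 780.6 (-0.53), then Mcm3ap, a scaffold of the TREX-2 complex, with 649.2 and 520.9 (-0.31). Ddx39b and Ddx39a, at 1.73 and 2.12, lay above all 25 of that list in these pools.

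Of 23 decapping and decay proteins, the partners of Ddx6, 13 were higher, beside 49.3% of all genes, with a median of 0.11. At least 2-fold higher were 2, beside 8.71% of all genes, and 1 was at least 2-fold lower, beside 9.59%. Cnot11 of the deadenylase complex read 348.9 and 811.7 (1.18), and the poly(A) binding protein Pabpc1 7014 and 15894 (1.18). Lsm14a, a P body protein, with 1793 and 771.9 (-1.20), and Lsm1, of the decapping ring, with 407.8 and 282.2 (-0.51), were lowest past both medians. Of the 3 probe sets of Lsm14a past the filter, however, 2 were higher and only this 1 was lower.

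**Figure D3:**
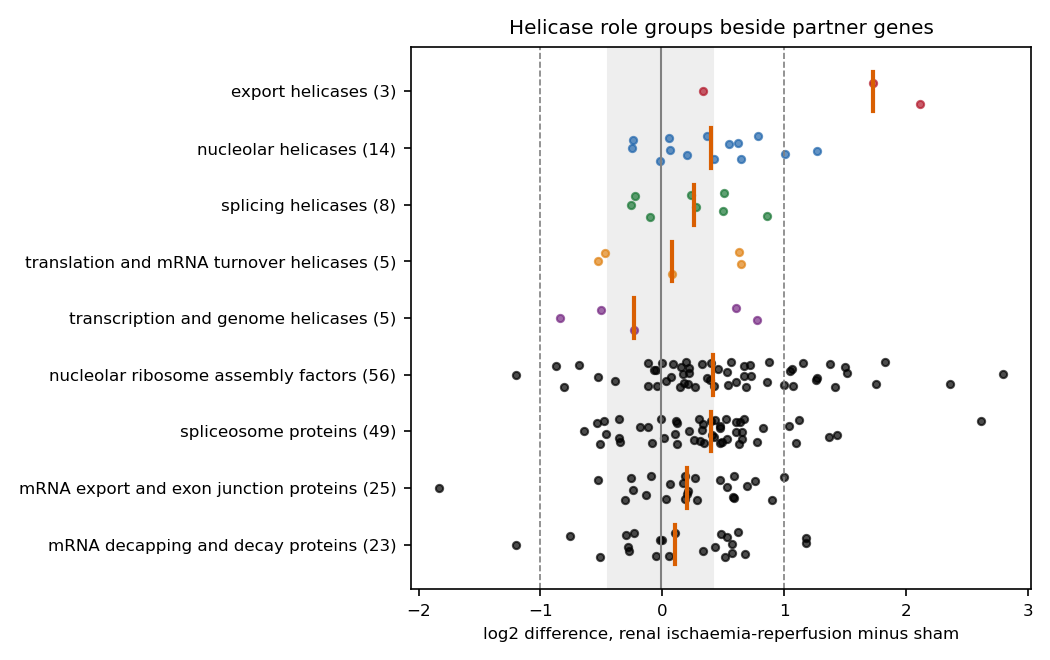
Log2 differences of single genes in the 5 larger helicase role groups (coloured) and in the 4 lists of partner genes (black), with the median of each as an orange bar, the quartiles of all genes as a grey band and dashed lines at 2-fold. The bar of the export helicases stands at 1.73 and that of the mRNA export and exon junction proteins at 0.20, whereas nucleolar helicases (0.40) and nucleolar assembly factors (0.41) nearly coincide.

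The role groups were also set side by side under the alternatives of scaling, pseudocount, filter and choice of probe set. Of the 13, 2 subtract a constant from every gene (centring and the hybridisation controls) and cannot change an order. In the others, too, the export median lay above the nucleolar one, and the nucleolar median above the splicing one. The latter 2 were close without suffixes _x_at and _s_at, at 0.28 (nucleolar) and 0.26 (splicing). All alternatives read the same 2 arrays. With 3, 14 and 8 genes and no replicate arrays, these differences have no test.

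**Figure D4:**
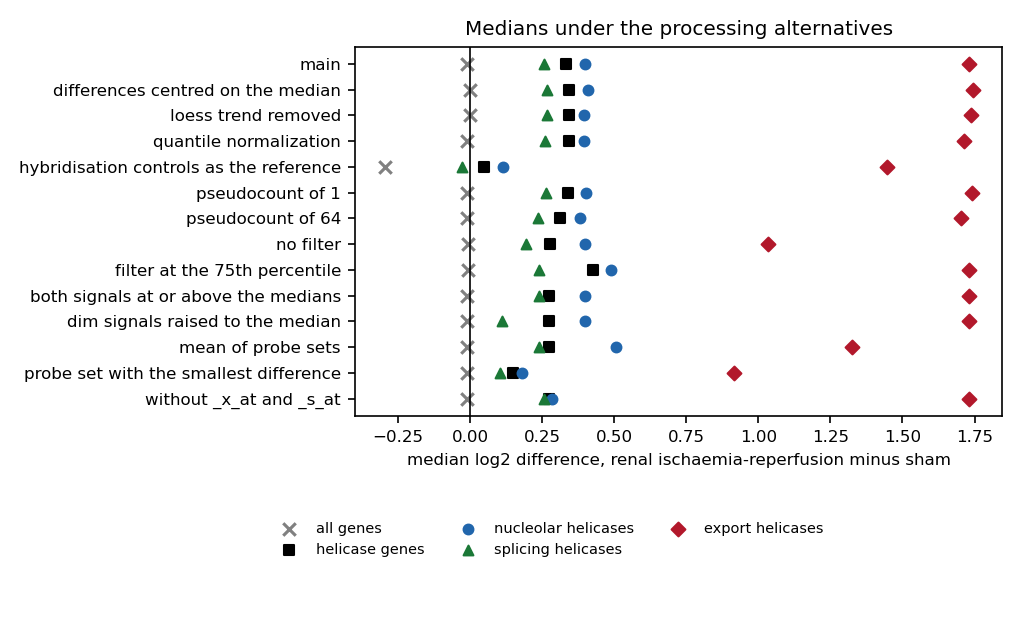
Median log2 difference of all genes, all helicase genes and 3 helicase role groups in the main setting and under 13 alternatives. The export group lies between 0.92 and 1.74, and with hybridisation controls as the reference all medians lie lower, at -0.30 for all genes and -0.028 for the splicing group.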

How the data were processed

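Liver RNA of 2 pools was hybridised to 1 Affymetrix array each. Per the labels' protocols, RNA was extracted with Trizol and 6 ug of each pool was made into biotin-labelled cRNA. The deposited values are an intensity per probe set on a linear scale. Their trimmed mean, without 2% at each end, was 500.0 on both arrays. How the scans were summarised or background-corrected was not given in the sources used here.

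Platform annotation gave 34945 of 45037 probe sets other than controls 1 gene, 932 several and 9160 none. Symbols were updated through Entrez IDs where RefSeq held them, which changed no helicase name. Probe sets entered when the brighter signal reached the array median (21003 probe sets, 13117 genes). Values were log2 with a pseudocount of 16, which shrinks differences of dim genes. With 1 array per group there is no test, and genes were counted at 2-fold. Where 1 signal lay below its array's median, a fold bound was taken as the brighter signal over that median, each plus the pseudocount. The number of arrays limits the precision.

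Values were given for every helicase gene past the filter. Of each partner list the 2 highest and 2 lowest above both medians were named, and other Thoc genes were added beside Thoc1. The members, role groups and lists were chosen with earlier results of these arrays known, and the promoter motifs after values were seen. The alternatives were 4 scalings, pseudocounts of 1 and 64, 3 filters, dim signals raised to the median, 2 other choices of probe set, no suffix _x_at or _s_at, and thresholds of 1.5-fold and 3-fold. The steps were tested on simulated data. Python 3.11.15, pandas 2.3.3, numpy 2.4.6 and statsmodels 0.14.6 were used.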

Additional observations from a re-analysis of the deposited data

How the results depend on the processing

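No paired analysis was possible because each group was 1 pool on 1 array, and no replicate could be left out. The 5 genes at least 2-fold higher and 0 lower became other counts under some settings. With the hybridisation controls as the reference, 3 helicase genes were at least 2-fold higher and 1 (Ddx17, -1.13) at least 2-fold lower (5.76% and 15.4% of all genes), and the medians were 0.049 for all helicases, 0.11 for nucleolar, -0.028 for splicing and 1.45 for export members, beside -0.30 for all genes. This reference subtracts the controls' own difference from every gene. When probe sets of a gene were averaged, 3 genes were at least 2-fold higher and 1 (Dhx58, -1.22) lower (8.87% and 9.66% of all genes), with medians of 0.51 for nucleolar and 1.32 for export members. Taking the probe set with the smallest difference, 2 were at least 2-fold higher (7.06% of all genes), with medians of 0.15 for all, 0.18 for nucleolar, 0.10 for splicing and 0.92 for export members, as this choice can only shrink differences. With dim signals raised to the median the splicing median was 0.11, without a filter the export median was 1.03 because Ddx25 entered, and without suffixes _x_at and _s_at the nucleolar median was 0.28. At 1.5-fold, 13 genes were higher and 1 lower (18.7% and 19.3% of all genes), and at 3-fold 3 were higher (3.60% of all genes). The other values of these counts and medians moved by less than 1.5 times or less than 0.1. Ddx39a was at least 2-fold higher in all 13 alternatives, Ddx39b in 12 of 13, Ddx28 in all 12 that keep it, Ddx21 in 10 and Ddx18 in 9. With the smallest difference of each gene, the Ddx39a value rested on a sham signal of 184.4, under the array median. Signals near the array median limit what can be said of dim members.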

Other observations

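Helicases of the same superfamily that carry other names were read as well. These genes were picked for their known relation to the family, and are not among its 50 members. Past both medians, only Eif4a1 and Eif4a2 among them differed by at least 2-fold. Of all genes past both medians, 5.14% were at least 2-fold higher and 6.17% lower. Eif4a1 and Eif4a2 encode the DEAD box helicases of the cap-binding complex that prepares mRNA for translation, and their signals went opposite ways. Eif4a1 went from 5763 after sham operation to 13035 after renal ischaemia-reperfusion, 2.26-fold higher, and its other 2 probe sets were also higher, with log2 differences of 0.86 and 1.15. Eif4a2 went from 7309 to 2918 by its only probe set, 2.50-fold lower. Eif4a3, the exon junction helicase, was dim in both pools (56.8 and 34.1).

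Mtrex, the nuclear helicase that feeds RNA to the exosome, read 190.1 after sham operation and 404.4 after renal ischaemia-reperfusion, and Skiv2l, its cytoplasmic counterpart, 389.2 and 185.5, each under the array median on 1 array. Snrnp200, the helicase that unwinds the U4 and U6 RNAs, read 932.5 and 1189 by one probe set and 247.5 and 268.2 by the other. Ythdc2 was under the median in both pools (127.2 and 153.1).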
